A study of Mus musculus with 36 samples.

Results

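The Hox genes are described here in the hypothalamus of mice injected with inflammatory cytokines. All genes whose only annotated symbol on the array is Hoxa, Hoxb, Hoxc or Hoxd followed by a number were taken, which gave 36 genes of the 18820 measured: 10 of the Hoxa, 9 of the Hoxb, 9 of the Hoxc and 8 of the Hoxd cluster. Male C57BL/6 mice received 50 µl intraperitoneally and the hypothalamus was taken 5 h later. Control mice received saline, TNF mice 15 pg of TNFα, IL-6 Low mice 50 pg and IL-6 High mice 800 pg of IL-6. TNF + IL-6 Low mice received 15 pg of TNFα with 50 pg of IL-6, and TNF + IL-6 High mice 15 pg with 800 pg. Each group had 6 mice with 1 array each, and TNF replicate 4, on which 40.0% of all genes lay more than 1.5-fold above their median against at most 2.44% on any other array, was left out, so that 35 arrays remained and TNF had 5.

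Hox genes encode homeodomain transcription factors that give cells their position along the head-to-tail axis of the embryo. They lie in 4 clusters, and genes at the same place in different clusters form a paralogue group. Low-numbered groups are expressed up to the hindbrain, and higher-numbered groups only further back in the spinal cord. In the forebrain, from which the hypothalamus develops, the clusters are held silent by Polycomb repressive complexes, and neurons of the hindbrain and spinal cord keep a Hox pattern into adult life. A Hox level in dissected hypothalamus therefore also bears on which tissue the sample held. In such bulk tissue fewer cells of a type and less RNA per cell cannot be told apart.

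Most Hox genes lay near the lower end of the intensities. All levels are log2 intensities from RMA, a method that summarises the probes of a transcript cluster, and the study's minimum intensity of 20 is 4.32 on this scale. The Hox genes over that minimum on at least 3 arrays numbered 10 of 36, or 27.8%, against 80.0% of all genes and 13.1% of 990 olfactory receptor genes, which serve as genes with little expression in brain. The median of the gene means was 3.74 for Hox genes, 6.25 for all genes and 3.08 for olfactory receptor genes. On none of the 35 arrays did 21 Hox genes pass the minimum.

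Hoxa4, Hoxb1, Hoxb3, Hoxb7 and Hoxb9 were the 5 Hox genes over the minimum on all 35 arrays. Hoxa4 ranged from 4.94 to 5.77 with a median of 5.28, and Hoxb9 from 4.88 to 5.84 with a median of 5.29. Hoxb3 had a median of 5.10 and Hoxb1, which marks a single segment of the embryonic hindbrain, of 4.98. Hoxb7 had a median of 4.78. Hoxc9, a gene of thoracic spinal cord, passed the minimum on 34 arrays with a median of 4.56. Levels of different genes depend on their probes, so the order of these medians is not an order of expression. By cluster, the genes over the minimum on at least 3 arrays were 2 of 10 in Hoxa, 5 of 9 in Hoxb, 1 of 9 in Hoxc and 2 of 8 in Hoxd. They were 5 of 14 in paralogue groups 1 to 5 and 5 of 22 in groups 6 to 13.

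**Figure D1:**
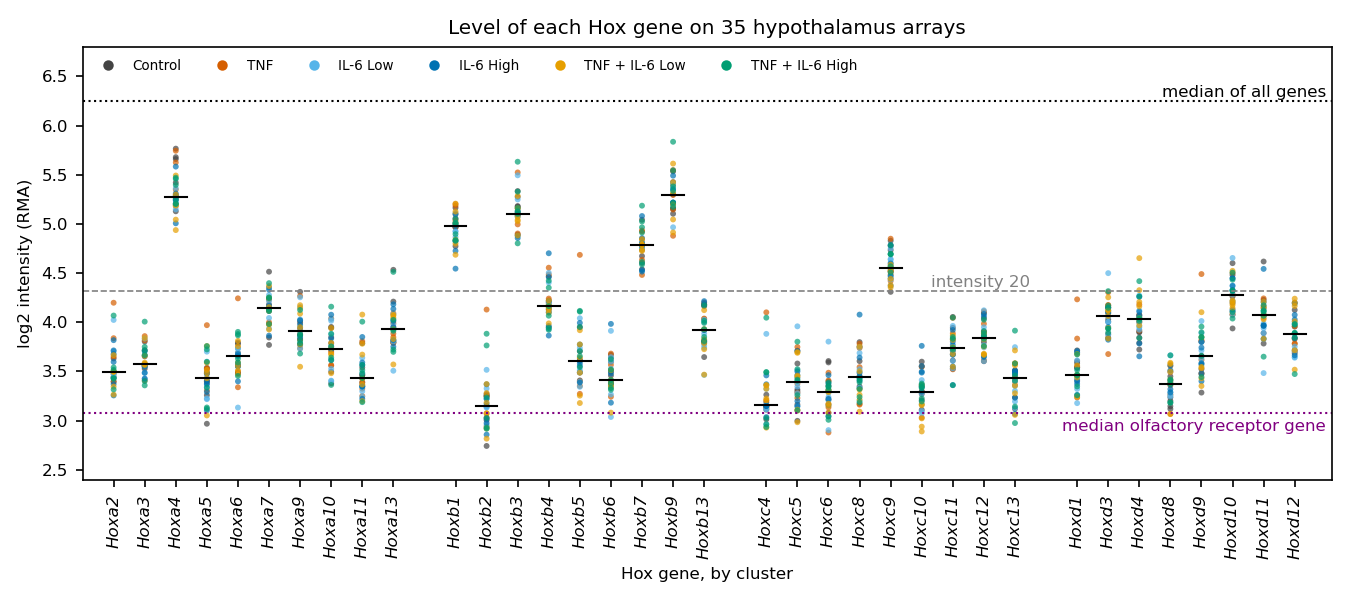
Log2 intensity of each of 36 Hox genes (points, 1 per array, 35 arrays, coloured by group) with its median (black bar). The dashed line is an intensity of 20, and dotted lines are the medians of all genes (6.25) and of olfactory receptor genes (3.08). Hoxa4, Hoxb1, Hoxb3, Hoxb7 and Hoxb9 lie over the dashed line on every array.

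Of 15 genes listed for the hypothalamus, the labelled tissue, 13 were measured. All 13 passed the minimum on at least 3 arrays and 12 on all 35. Among genes of the hindbrain and spinal cord, 6 of 8 measured passed the minimum on at least 3 arrays and 3 on all 35. Among genes of serotonergic neurons of the raphe, a hindbrain nucleus, 7 of 7 passed it on at least 3 arrays and 3 on all 35. Over all genes 80.0% passed it on at least 3 arrays, and 13073 of 18820 on all 35. The counts on at least 3 arrays therefore do not set the hypothalamus apart from other tissue. On all 35 arrays its share was larger than in both hindbrain lists and over all genes. All 10 genes listed for meningeal fibroblasts passed the minimum on all 35 as well. For Control replicates 5 and 6 the labels and the array names disagree on the mouse number. The array names give numbers that belong to mice of TNF + IL-6 High, yet name the group as Control, and the arrays were used as Control.

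No Hox gene passed the test against Control in any group. The question of these comparisons was whether an injection of TNFα, IL-6 or both changed hypothalamic expression within 5 h. In limma's moderated test with Benjamini-Hochberg adjustment over 18820 genes, 0 of 36 Hox genes passed an adjusted p of 0.05 in the 5 comparisons, in the mean of the 5 treated groups, in the test for any difference among the 6 groups, or in the tests for a departure of either combination from additive effects. The share of all genes called was 0% in each of these 9 tests. No Hox gene changed by more than 1.5-fold in a group mean, while 0.186% of all genes did with TNF alone. The shares of all genes past this fold were 0.0584% for IL-6 Low and 0.128% for IL-6 High. For TNF + IL-6 Low the share was 0.26%, and for the combination with the high dose it was 0.0797%.

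At an unadjusted p under 0.05, limma gave 1 Hox gene in TNF, or 2.78% of the 36, beside 5.28% of all genes. It gave 2 Hox genes (5.56%) in IL-6 Low beside 2.56% of all genes, and 0 in IL-6 High beside 2.68%. In TNF + IL-6 Low it gave 3 Hox genes (8.33%) beside 8.78% of all genes, and in TNF + IL-6 High 1 (2.78%) beside 2.99%. The mean of the treated groups gave 2 Hox genes beside 3.97% of all genes, and the test among the 6 groups gave 2 beside 3.23%. The departure of TNF + IL-6 Low from additive effects gave 2, Hoxa2 and Hoxd9, beside 3.7%, and that of TNF + IL-6 High gave 0 beside 4.17%. The median log2 difference of the 36 genes lay between -0.02 and 0.02 over the 5 comparisons, and that of all genes between -0.02 and 0.01. The number of Hox genes with a difference above 0 was 19 for TNF. It was 14 for the low and 18 for the high dose of IL-6 alone, and 12 and 22 for the combinations with those doses. All 5 comparisons use the same Control arrays.

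**Figure D2:**
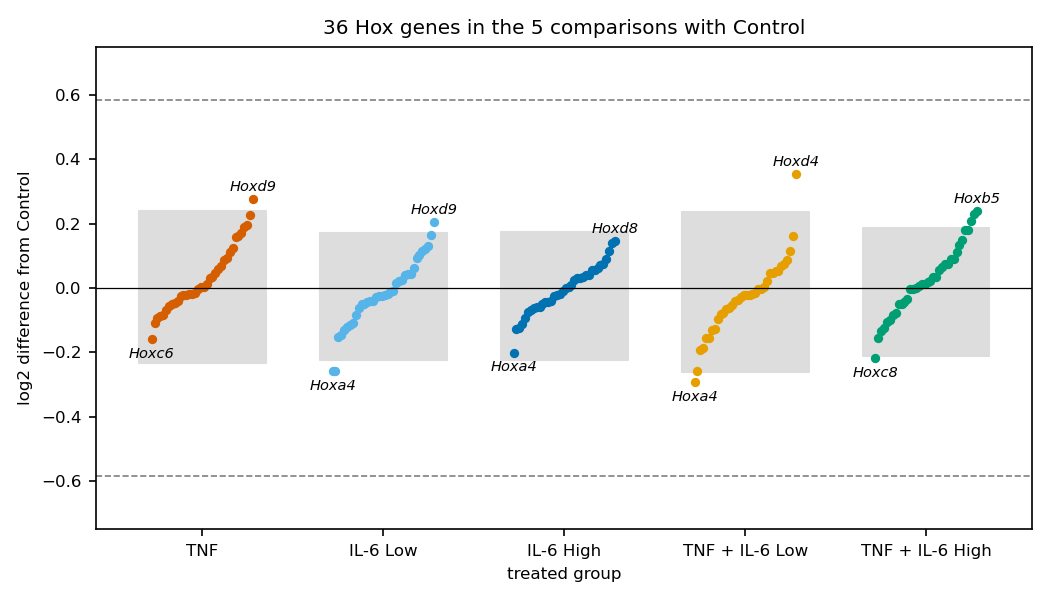
Log2 difference of each of 36 Hox genes from Control in the 5 treated groups (points, ordered by value within a group). Grey boxes hold the middle 95% of all 18820 genes and dashed lines mark a fold of 1.5, and the gene names are those of the lowest and the highest Hox gene. No Hox gene reaches the dashed lines.

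Hoxd4 had the smallest p among the Hox genes in a comparison with Control. This gene of paralogue group 4 is expressed up to the caudal hindbrain. Its Control values ran from 3.72 to 4.08 with a median of 3.87. In TNF the 5 values were 4.00, 4.01, 4.07, 3.92 and 4.18. In TNF + IL-6 Low they ran from 3.97 to 4.65 with a median of 4.18, and in TNF + IL-6 High from 3.84 to 4.42 with a median of 4.04. The highest Control array, replicate 5, lay within the range of every treated group. The log2 difference was 0.35 (SE 0.11, adjusted p = 0.555 with limma) in the combination with the low dose. It was 0.23 (SE 0.11, adjusted p = 1 with limma) in that with the high dose. IL-6 Low (3.92 to 4.27, median 3.98) and IL-6 High (3.65 to 4.26, median 4.06) overlapped Control as well. Array names begin with 1 of 4 letters, whose meaning the labels do not give, and each letter holds all 6 groups. Within the letters the Hoxd4 difference in TNF + IL-6 Low was 0.14, 0.40, 0.21 and 0.75.

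Hoxa4, its paralogue in the Hoxa cluster, lay lower than Control in all 5 group means, without passing the test. Control arrays ran from 5.13 to 5.77 with a median of 5.54, and were spread widely (SD 0.26, n = 6). The 6 arrays of IL-6 Low lay between 5.15 and 5.36 with a median of 5.21, and those of TNF + IL-6 Low between 4.94 and 5.49 with a median of 5.19. All of these ranges overlapped. The log2 difference was -0.26 (SE 0.11, adjusted p = 1 with limma) in IL-6 Low and -0.29 (SE 0.11, adjusted p = 0.555 with limma) in TNF + IL-6 Low. In the latter, the within-letter differences were -0.07, -0.13, -0.48 and -0.48.

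Hoxc10, a gene of the lumbar spinal cord and hindlimb, had the smallest p among the Hox genes in the test over 6 groups. Control arrays lay between 3.11 and 3.60 with a median of 3.31, TNF + IL-6 Low arrays between 2.89 and 3.36 with a median of 3.09, and IL-6 High arrays between 3.29 and 3.76 with a median of 3.49. The combination with the low dose was thus lower and the high dose of IL-6 alone higher than Control, and both overlapped it. All values were under the minimum intensity. The unadjusted p over the 6 groups was 0.00654 and the adjusted p was 1 with limma.

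Hoxd9 and Hoxd11, genes of the posterior Hoxd cluster used in spinal cord and limb, had differences that moved by over 1.5 times without 1 array. Other named genes did so too, such as Hoxa2 in TNF, from 0.23 to 0.11 without TNF replicate 5. Hoxd9 had TNF values of 3.81, 3.62, 3.48, 3.82 and 4.49 against 3.28 to 3.80 (median 3.59) in Control. The log2 difference of 0.28 (SE 0.14, adjusted p = 0.925 with limma) was 0.11 without TNF replicate 6, which was the highest of all 35 arrays. Hoxd11 ran from 3.48 to 4.06 (median 3.92) in IL-6 Low and from 3.78 to 4.62 (median 4.11) in Control. Its difference of -0.26 (SE 0.12, adjusted p = 1 with limma) was -0.16 without Control replicate 5. Within the array letters it was -0.30, -0.15, -0.32 and -0.31, below 0 in all 4, while that of Hoxd9 in TNF was 0.15, 0.08, 0.18 and 0.97. The other genes of smallest p were Hoxa2, Hoxc6 and Hoxd12 in TNF, Hoxd8 and Hoxb1 in IL-6 High, and Hoxc8 in TNF + IL-6 High, with log2 differences between -0.22 and 0.23.

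**Figure D3:**
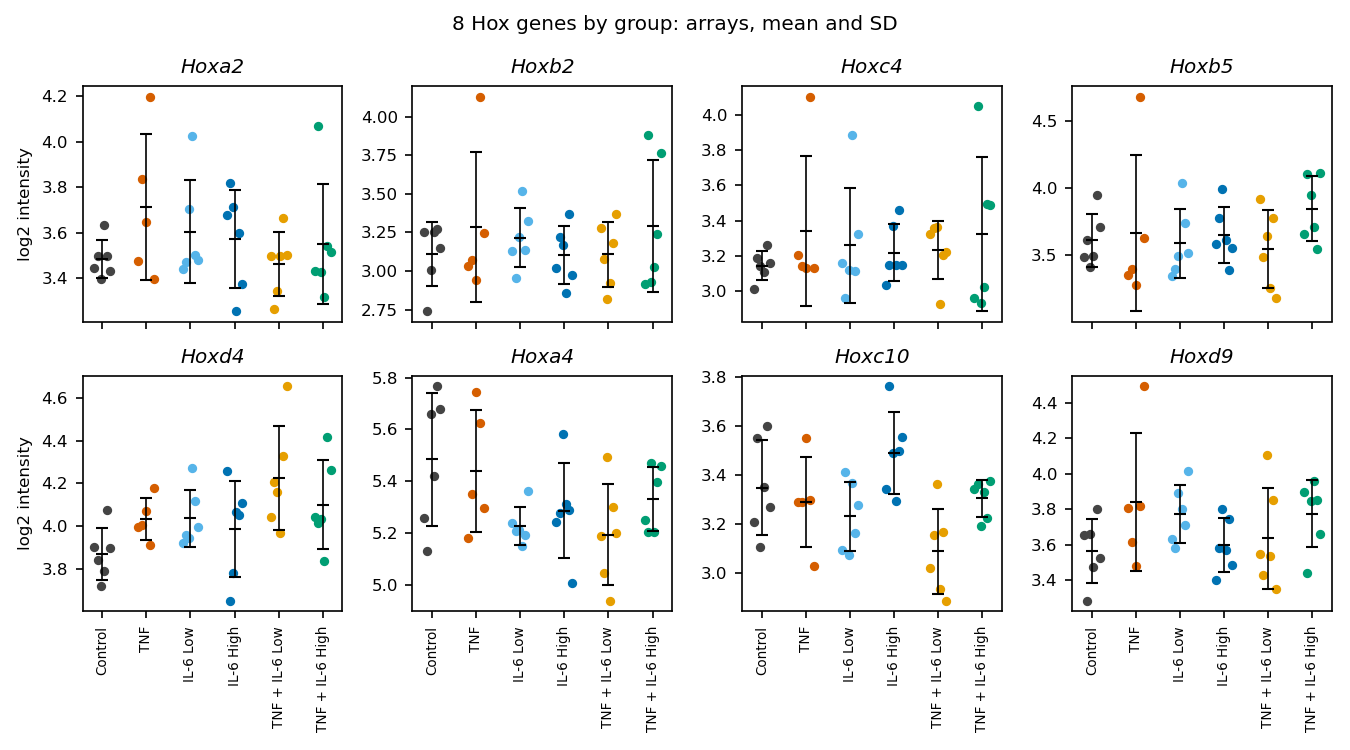
Log2 intensity of 8 Hox genes by group (points are arrays, bars the group mean and SD). In the upper row 1 to 3 arrays lie far above the rest of their groups, and in the lower row the treated groups overlap Control.

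The 6 Hox genes with the largest SD of deviations from their group means were Hoxb5 (0.31), Hoxb2 (0.30), Hoxc4 (0.29), Hoxc5 (0.26), Hoxd9 (0.23) and Hoxa11 (0.23). The SD of Hoxb5 was above that of 96.3% of all genes. Hoxb2, Hoxb5 and Hoxc4 all had their highest value on TNF replicate 5.

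Hoxc4, a gene of the cervical spinal cord, showed the pattern most plainly. It lay between 3.01 and 3.26 in Control, between 3.04 and 3.46 in IL-6 High and between 2.93 and 3.36 in TNF + IL-6 Low. The 5 TNF arrays had 3.21, 3.14, 3.13, 4.10 and 3.13. The remaining groups had 1 high array each, IL-6 Low replicate 4 at 3.88 and TNF + IL-6 High replicate 2 at 4.05. No other array passed 3.49.

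Hoxb2, which patterns the hindbrain segments that give rise to facial motor neurons, was at 4.13 on TNF replicate 5, 3.88 for TNF + IL-6 High replicate 2 and 3.52 for IL-6 Low replicate 4. Its median over 35 arrays was 3.15. TNF + IL-6 High replicate 6 was also high, at 3.76. Hoxa2, its paralogue and the most anterior Hox gene of the hindbrain, was at 4.20, 4.07 and 4.02 on the same 3 arrays against a median of 3.50, and no other array passed 3.84. Hoxb5 reached 4.69 on TNF replicate 5, 4.11 for TNF + IL-6 High replicate 2 and 4.04 for IL-6 Low replicate 4, with a median of 3.61. TNF + IL-6 High replicate 6 had 4.12 for Hoxb5. Hoxd3 was at 4.30, 4.32 and 4.50 on the 3 arrays and at or under 4.25 on all others. Hoxb3 was at 5.52, 5.33 and 5.49 there, and its highest value of 5.63 was on TNF + IL-6 High replicate 6. Hoxa2 and Hoxb2 were under the minimum intensity on every array. Hoxb5 and Hoxd3 passed it on 1 array each, and Hoxb3 on all 35.

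Promoters are shown for Hoxa2 and Hoxc4, which lie in different clusters and were both high on TNF replicate 5 and the other 2 arrays. The sequences are from RefSeq on GRCm38.p6 and run from 250 bases before to 50 after the start of the gene. Capitals mark TGACAG, a motif bound by Meis factors, and TGATNNAT, bound by Pbx with Hox proteins, on either strand.
Hoxa2 promoter, chr6:52164782-52165081, minus strand: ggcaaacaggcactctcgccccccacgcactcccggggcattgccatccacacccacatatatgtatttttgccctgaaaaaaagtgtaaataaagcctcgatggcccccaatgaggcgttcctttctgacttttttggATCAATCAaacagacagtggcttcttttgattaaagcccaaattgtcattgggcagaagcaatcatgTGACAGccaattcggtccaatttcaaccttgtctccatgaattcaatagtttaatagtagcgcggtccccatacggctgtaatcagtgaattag
Hoxc4 promoter, chr15:103034145-103034444, plus strand: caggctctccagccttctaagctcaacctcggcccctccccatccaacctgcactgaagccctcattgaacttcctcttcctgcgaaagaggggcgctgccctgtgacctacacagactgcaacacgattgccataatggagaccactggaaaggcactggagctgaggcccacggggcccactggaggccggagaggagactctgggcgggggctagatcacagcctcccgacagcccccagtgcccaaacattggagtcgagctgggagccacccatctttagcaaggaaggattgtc
The Hoxa2 promoter held 1 TGACAG and 1 TGATNNAT, which did not overlap, and the Hoxc4 promoter held neither. TGACAG was found in 19.2% and TGATNNAT in 8.85% of 32851 promoters of this length. Of 22 promoters of 20 Hox genes in the table, 2 held TGACAG and 3 held TGATNNAT. Both promoters had 9 CG dinucleotides.

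The 3 arrays were also those of highest Slc6a5, the glycine transporter of inhibitory neurons in hindbrain and spinal cord. Slc6a5 was at 7.85 on TNF replicate 5, 7.33 for TNF + IL-6 High replicate 2 and 6.47 for IL-6 Low replicate 4, and the next array was Control replicate 4 at 5.23. Its median was 4.09. TNF replicate 5, IL-6 Low replicate 4 and Control replicate 4 carry the array letter G, and TNF + IL-6 High replicate 2 the letter F. Among the other arrays of letter G, IL-6 High replicate 4 was at 4.99, above the median, and Control replicate 5 at 3.93, below it. The part of the array letter in these Slc6a5 values was not tested. On all 3 arrays Hoxa2, Hoxd3 and Hoxc4 lay above each of the other 32, which held for 3 of 36 Hox genes (8.33%) and for 11 of 18820 genes (0.0584%), Slc6a5 being one of them as the gene that ranked the arrays. All 3 Hox genes belong to paralogue groups 1 to 5. Of the 14 members of groups 1 to 5, 9 had their highest value on 1 of the 3 arrays, and of the 22 members of groups 6 to 13, 2 did (64.3% and 9.09%, against 14.5% of all genes). The boundary between groups 5 and 6 and the use of Slc6a5 were chosen after the values had been seen.

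The mean deviation of the 14 genes of groups 1 to 5 from their medians was highest on the 3 arrays, at 0.46 for TNF replicate 5, 0.31 for IL-6 Low replicate 4 and 0.30 for TNF + IL-6 High replicate 2. The next arrays were TNF + IL-6 High replicate 6 with 0.22 and Control replicate 5 with 0.15. The 22 genes of groups 6 to 13 had a mean deviation of 0.02 on TNF replicate 5, and of -0.02 on both other arrays. On TNF replicate 5, 5 Hox genes were more than 1.5-fold above their median, all of groups 1 to 5, which was 2.21% for all genes on that array. Members went both ways on the 3 arrays. Of the 14 genes of groups 1 to 5, 11 lay above their median on TNF replicate 5, 12 on IL-6 Low replicate 4 and 11 on the third array, and of the 22 of groups 6 to 13 the numbers were 12, 11 and 9. Hoxb1, Hoxa4 and Hoxd4 were not high on all 3, with Hoxb1 between -0.08 and 0.04 of its median. Single posterior genes deviated as well, such as Hoxc6 by 0.51 and Hoxb13 by -0.46 on IL-6 Low replicate 4.

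**Figure D4:**
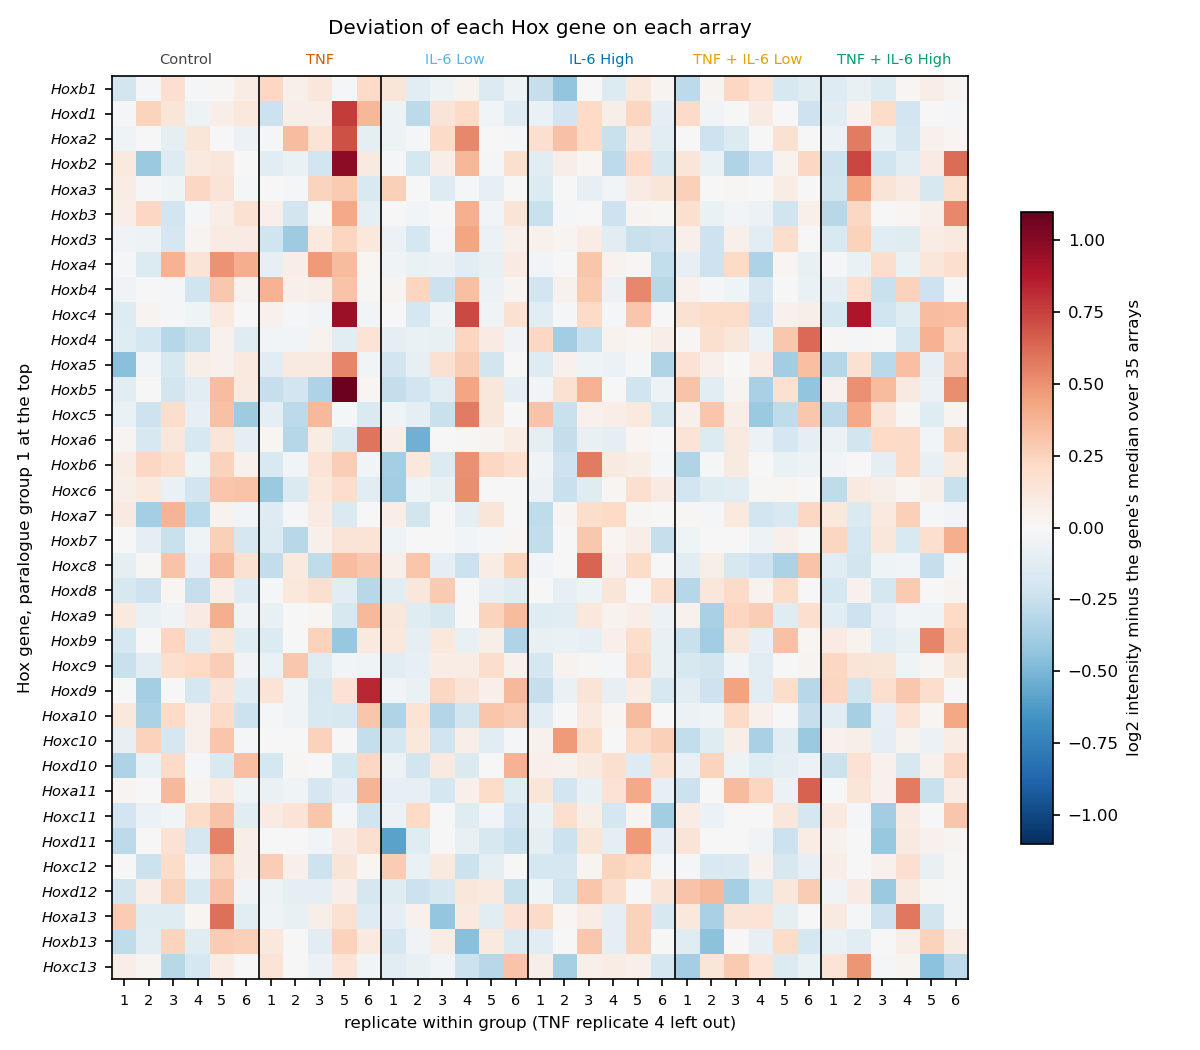
Deviation of each Hox gene from its median over 35 arrays (log2, red above and blue below), with genes ordered by paralogue group from the top and arrays by group. TNF replicate 5, IL-6 Low replicate 4 and TNF + IL-6 High replicate 2 are red in most of the upper rows, where Hoxb2 and Hoxc4 reach 0.98 and 0.94 on TNF replicate 5, while Hoxb1 stays near 0.

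Markers of several brain regions and cell types were above their Control range on some of the 3 arrays, though for some lists other arrays were higher. The list of 8 hindbrain and spinal cord genes contains Slc6a5, which ranked the arrays. Without it, the other 7 genes had a mean deviation of 0.41 on TNF replicate 5, -0.08 for TNF + IL-6 High replicate 2 and -0.02 for IL-6 Low replicate 4, against -0.05 to 0.24 over the Control arrays. That list was thus above the Control range on 1 of the 3 arrays. For 7 genes of raphe serotonergic neurons the mean deviation was 1.82, 1.11 and 0.23 in the same order, against -0.24 to 0.14 in Control.

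Other lists were also above their Control range on some of these arrays. On TNF replicate 5 they were blood cells (0.69, Control at most 0.22), midbrain dopaminergic neurons (1.00, at most 0.56), cortex, hippocampus and thalamus (0.41, at most 0.29) and cerebellum (0.36, at most 0.14). On the TNF + IL-6 High array they were choroid plexus (0.82, at most 0.49), cerebellum (0.55), cortex, hippocampus and thalamus (0.53) and blood cells (0.38). On IL-6 Low replicate 4 the pituitary list was at 1.52, with at most 0.88 in Control. Among the other 32 arrays the highest value was 1.81 for cerebellum, 1.06 for cortex, hippocampus and thalamus, and 1.01 for midbrain dopaminergic neurons. It was 5.65 for pituitary, 0.47 for blood cells and 0.49 for choroid plexus. IL-6 High replicate 4 had 1.31 for the raphe list, with Tph2 (serotonin synthesis) at 6.86, while its Hoxb2 was 2.86 and its mean deviation of groups 1 to 5 was -0.07. On IL-6 Low replicate 4 Hoxc4 was at 3.88 and Tph2 at 4.34. TNF replicate 2, the array of highest Gabra6 (a receptor subunit of cerebellar granule cells, 8.15), had Hoxc4 at 3.14 and Hoxb2 at 3.07. The 13 hypothalamic genes had mean deviations of -0.32, -0.74 and -0.15 on TNF replicate 5, TNF + IL-6 High replicate 2 and IL-6 Low replicate 4, with -0.26 to 0.41 in Control. The part of other brain regions or cell types in the Hox values was not tested.

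**Figure D5:**
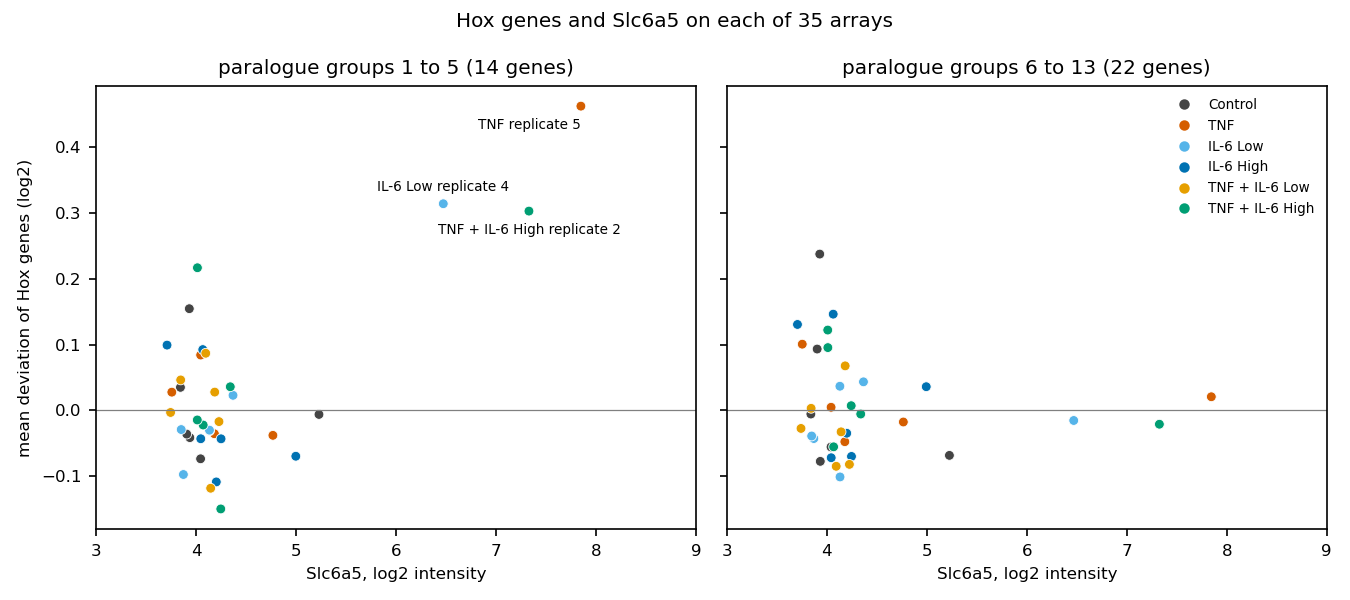
Mean deviation (log2) of the Hox genes of paralogue groups 1 to 5 (left) and 6 to 13 (right) from their medians on each array, against the log2 intensity of Slc6a5 (35 arrays, coloured by group). The 3 arrays of highest Slc6a5 (6.47 to 7.85) have the highest means of groups 1 to 5 (0.30 to 0.46), and means near 0 for groups 6 to 13.

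Since these 3 arrays hold the highest values of several anterior genes, leaving them out lowers the means of their groups by construction. The TNF difference of Hoxa2 went from 0.23 to 0.11, that of Hoxb2 from 0.17 to -0.04, that of Hoxc4 from 0.20 to 0.01 and that of Hoxb5 from 0.06 to -0.20, with 4 TNF arrays in place of 5. In TNF + IL-6 High the Hoxc4 difference went from 0.18 to 0.04 and in IL-6 Low from 0.11 to -0.01. None of these had passed the test.

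Control replicate 5 showed another pattern. It held the highest value of 5 Hox genes, and 13 of 14 genes of groups 1 to 5 and 21 of 22 of groups 6 to 13 lay above their medians there. The shift was small, with a mean deviation of 0.15 for groups 1 to 5 and 0.24 for groups 6 to 13. Slc6a5 was at 3.93 on this array. The hypothalamic genes had a mean deviation of 0.41 there, nearly equal to IL-6 High replicate 3 (0.41) and TNF + IL-6 Low replicate 3 (0.39).

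Deviations of Hox genes from group means were weakly related across arrays. Over the 630 pairs the median Pearson r was 0.13 (35 arrays, the genes sharing arrays and normalization), against 0.03 over all pairs of all genes and 0.08 over pairs of olfactory receptor genes. With the replicate number as a block it was 0.0863. For 31 pairs of neighbours in a cluster it was 0.29, for 114 other pairs within a cluster 0.12, for 35 pairs of the same paralogue group in different clusters 0.18 and for the remaining 450 pairs 0.13. Pairs within groups 1 to 5 had a median of 0.29 and pairs within groups 6 to 13 of 0.16. The highest value was that of Hoxb2 with Hoxc4, genes of different clusters, at 0.80, followed by Hoxb3 with Hoxc4 at 0.69 and Hoxa2 with Hoxb2 at 0.69. Without the 3 arrays of highest Slc6a5 these were 0.56, 0.55 and 0.34, and Hoxa2 with Hoxc4 went from 0.68 to 0.07. Hoxa9 with Hoxa10, neighbours of the posterior Hoxa cluster, had 0.60 and 0.57.

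The genes most like Hoxb5, Hoxb2 and Hoxc4 were sought among genes with a mean over the minimum intensity. For Hoxc4 they were Mab21l2 (r = 0.79), Slc6a5 (0.79), Irx2 (0.73), Itgb3 (0.72) and Esyt1 (0.71). For Hoxb2 they were Mab21l2 (0.76), Irx2 (0.74), Fstl1 (0.73), Sema3e (0.69) and Nppc (0.68), and for Hoxb5 Fstl1 (0.72), Mab21l2 (0.66), Nppc (0.65), Cabp7 (0.65) and Barhl1 (0.64). Irx2 is a homeobox gene of midbrain and hindbrain, and Mab21l2 a developmental gene of the midbrain. Without the 2 arrays farthest from the median of Hoxc4, TNF replicate 5 and TNF + IL-6 High replicate 2, the values for Mab21l2 and Slc6a5 were 0.49 and 0.47. Without all 3 arrays Slc6a5 had -0.02 with Hoxc4. Among Hox genes over the minimum, Hoxb3 was the most like all 3, with 0.57 for Hoxb5, 0.67 for Hoxb2 and 0.69 for Hoxc4.

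Genes tied to the clusters were described from lists. Of 8 measured TALE homeobox cofactors, which bind DNA with Hox proteins, 0 were called and 2 were higher in TNF at an unadjusted p under 0.05, which 5.28% of all genes reached there in either direction. These were Pbx3 at 0.39 on the log2 scale above Control (SE 0.12, adjusted p = 0.924 with limma) and Meis1 with 0.38 (SE 0.16, adjusted p = 0.925 with limma). Of 19 Polycomb genes, 0 were called. In TNF, Suz12, a core subunit of the repressive complex that methylates histone H3, differed by 0.17 (SE 0.07), and Phf19, which recruits that complex, by -0.28 (SE 0.11), each with an adjusted p of 0.925 in limma. Of 8 genes of Trithorax complexes and H3K27 demethylases 0 were called. Kdm6a, which removes the Polycomb mark, had 0.22 (SE 0.08) in TNF + IL-6 Low, and Men1 had -0.12 (SE 0.09). Of 14 upstream regulators, retinoic acid genes among them, 0 were called and none had an unadjusted p under 0.05 in the 5 comparisons, with Rarg at 0.12 and Gbx2 at 0.44 in TNF + IL-6 Low.

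Among 19 measured genes beside the clusters, 0 were called and 3 (Mir10a, Hibadh and Snx10) were higher in TNF at an unadjusted p under 0.05, beside the 5.28% of all genes. Mir10a had a log2 difference of 0.15 (SE 0.07), and Skap1, beside the Hoxb cluster, had 0.16 (SE 0.09) without reaching that p. The loci of Mir10a, in the Hoxb cluster, and Mir10b, in the Hoxd cluster, are shown since they lie between Hox genes and share a seed, the bases 2 to 8 of the mature miRNA in capitals (RefSeq, GRCm38.p6).
mmu-miR-10a-5p, chr11:96317186-96317208, plus strand: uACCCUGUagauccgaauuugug
mmu-miR-10b-5p, chr2:74726074-74726096, plus strand: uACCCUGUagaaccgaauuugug
The Mir10a transcript cluster ranged from 1.72 to 2.21 and that of Mir10b from 2.25 to 2.85 over the 35 arrays, under the minimum intensity throughout. On TNF replicate 5, IL-6 Low replicate 4 and TNF + IL-6 High replicate 2, Mir10b was at 2.52, 2.54 and 2.32 beside a median of 2.49. In the same order Mir10a was at 2.21, its highest value, 1.88 and 1.87 beside a median of 1.98. The form of the RNA that these transcript clusters measure was not stated.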

How the data were processed

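Hypothalamus RNA of 36 mice was hybridised to Affymetrix Mouse Gene 1.1 ST arrays. The authors deposited log2 intensities from RMA (version not given in the sources), which were used without a further normalization. The table has 35556 transcript clusters, and the remapped Entrez probe sets of the study's methods were not used. Of the clusters, 21218 name 1 gene and 1881 several; those of 1 gene gave 18820 genes, with the cluster of highest mean per gene and no intensity filter. Each Hox gene had 1 cluster, and all 36 matched RefSeq by Entrez identifier. The doses are those of the study's methods and the TNF group is the one that the labels name as low.

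TNF replicate 4 was left out of the 35 arrays used. The study excluded 1 TNF array without naming it. All genes were fitted in a linear model of the 6 groups with limma 3.58.1 in R 4.3.3 (lmFit, eBayes with an intensity trend), with Benjamini-Hochberg adjustment over 18820 genes and a threshold of 0.05, after being tested on simulated data. Each mouse was taken as an independent animal, and the number of arrays limits the precision; the median SE of a log2 difference was 0.11 for Hox genes and 0.10 for all genes in 4 of the 5 comparisons. Levels, co-variation and likeness were computed with Python 3.11.15, pandas 2.3.3 and numpy 2.4.6 and are descriptions.

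Hox genes were named where they were among the 2 of smallest p in a direction of a comparison or the 6 of largest SD around group means. For likeness, the 5 genes of highest r were named, leaving out predicted genes, receptor segments and small RNAs. For each pathway list the 2 genes of smallest p over the 6 groups were named. Other Hox genes named for their level or for being high on single arrays were chosen after their values were seen. The members and lists were chosen with earlier results of these data known. Alternatives were all 36 arrays, an intensity filter, median centring, quantile normalization, no intensity trend, array weights, the mean of a gene's clusters, the replicate number or array letter as a block, only the groups compared, and leaving out each array.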

Additional observations from a re-analysis of the deposited data

Results flagged for a closer look

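Some arrays lay far from the rest of their group for a named Hox gene. In 96 groups of 5 or 6 arrays (16 genes in 6 groups), 9 values had a gap to the nearest array that was over Dixon's critical value. Chance gives about 1 in 20 groups. That rate does not apply as it stands, since 6 of the genes were named for a large SD around group means. In them 5 of the 9 values were found, and the genes share the same arrays, so that 1 array can be counted for several genes. On TNF replicate 5, Hoxb2 was at 4.13 with the other 4 arrays at 2.94 to 3.25, Hoxc4 at 4.10 with the others at 3.13 to 3.21, and Hoxb5 at 4.69 with the others at 3.27 to 3.63. On TNF + IL-6 High replicate 2, Hoxa2 was at 4.07 with the others at 3.32 to 3.54. These are 2 of the 3 arrays of highest Slc6a5, and what part other tissue had in them was not tested.

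The other arrays lay apart for 1 or 2 genes. Hoxc8 was at 4.08 on IL-6 High replicate 3 with the others at 3.41 to 3.64, and Hoxa11 at 3.81 on TNF replicate 6 with the others at 3.25 to 3.39. On TNF + IL-6 High replicate 3, Hoxd11 was low at 3.65 (others 4.07 to 4.17) and Hoxd12 was low at 3.47 (others 3.84 to 3.98). Hoxc4 was low at 2.93 on TNF + IL-6 Low replicate 4 (others 3.21 to 3.36).

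On TNF replicate 4, which no comparison used, 34 of 36 Hox genes lay above every Control array, against 44.7% of all genes, and the Hox values ran from 3.68 to 7.54.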

How the results depend on the processing

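No Hox gene was called in any of the 9 tests under any of the 410 combinations of test and alternative that were run, and the smallest adjusted p among them was 0.256. At an unadjusted p under 0.05 the counts ran from 0 to 6 Hox genes, with 6 in TNF with all 36 arrays. The share of all genes at that p was not counted for the alternatives, so these counts have no background beside them. TNF replicate 4, used with all 36 arrays, had 40.0% of all genes more than 1.5-fold above their median. Leaving out each array in turn gave 0 called Hox genes throughout, and co-variation medians from 0.0983 to 0.148 against 0.13. Without the 3 arrays of highest Slc6a5, chosen after seeing the data, the count stayed at 0 and the co-variation median was 0.149. With all 36 arrays, TNF replicate 4 included, the TNF difference of Hoxc6 was 0.29 in place of -0.16 and that of Hoxd12 was 0.21 in place of -0.11, and the co-variation median was 0.69. With a replicate block that median was 0.0863 and 0 Hox genes were called. Over 29 pairs, the deviations from group means of a treated array and the Control array of its number had correlations from -0.12 to 0.38. Of these 15 were over 0.1, and 7 of 29 treated arrays correlated best with the Control array of their own number. These values are descriptions and do not settle whether the replicate numbers pair the samples. The number of Hox genes over the minimum intensity on 3 arrays was 10, and 9 with quantile normalization, 10 with median centring and 12 with all 36 arrays, alternatives that were chosen after seeing the data. Low intensity limits these results, since 21 of 36 Hox genes never passed the minimum and small changes in them would not be detectable.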

Other observations

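Transcript clusters that name a Hox gene together with another gene were kept out of the 36. The cluster of Hoxb8 and Hoxb7 had a median of 3.28 (2.75 to 3.79), that of Hoxd3os1 and Hoxd3 of 4.47 (4.07 to 5.11), with its highest value on Control replicate 5, and that of Hoxaas2 and Hoxa3 of 4.26 (3.94 to 4.59). The signal of the paired genes cannot be told apart on these clusters.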
